A study of Mus musculus with 6 samples.

Results

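The set described here comprised every contig whose mouse gene symbol began with Dnah, Dnai, Dnal, Dnaaf, Rsph, Drc, Tekt or Cfap, where a contig is a reference transcript to which reads were aligned. It held 145 of the 12114 contigs in the data and came from 89 genes. By prefix there were 25 Dnah contigs (12 genes), 9 Dnai (5 genes), 5 Dnal (3 genes), 8 Dnaaf (8 genes), 14 Rsph (7 genes), 3 Drc (3 genes), 13 Tekt (7 genes) and 68 Cfap (44 genes). The rule used names and no measured value, but it was chosen with earlier results of these data known.

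Germ cells were sorted by Hoechst fluorescence and light scatter, with dead cells excluded by propidium iodide. They came from the testes of adult male mice of the C57BL/6J/B6 genotype, for which the labels name no mutation and no treatment. Pachytene and diplotene spermatocytes (P/D spermatocytes), which are in meiotic prophase, were compared with round spermatids (RS), the haploid cells that meiosis yields. Each group had 3 samples, each a pool of mRNA from 3 mice, and native poly(A) RNA was read by nanopore direct RNA sequencing, which gives a poly(A) tail length for each molecule. Each cell type had a sequencing library of its own that held its 3 samples under barcodes, so that cell type and library cannot be told apart. Fewer cells of a type and less RNA per cell cannot be told apart either, since each sample is a bulk sort that enriches for a cell type without purifying it. Purity was unequal. By the paper's microscopy, the P/D gate held a clearly smaller share of its target cells than the RS gate. A P/D value is therefore that of a mixed sort.

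The axoneme is the microtubule core of the sperm tail. Dynein arms built from heavy chains (Dnah), intermediate chains (Dnai) and light chains (Dnal) slide its microtubules past one another after assembly factors (Dnaaf) have put them together in the cytoplasm, and radial spokes (Rsph) and the nexin-dynein regulatory complex (Drc) connect and regulate the arms. Tektins (Tekt) are filaments inside the microtubule wall, and Cfap is a heterogeneous name for cilia and flagella associated proteins. The tail itself is assembled in spermatids, and a poly(A) tail is known to affect both the lifetime and the translation of an mRNA.

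Depth was between 244004 and 474688 reads per sample, of which members took 1.75%, 1.90% and 1.78% in P/D spermatocytes and 1.84%, 1.90% and 1.801% in RS, with overlap. Accumulation is given as CPM, the count of a contig scaled to the depth of its sample. Markers of round spermatids (10 genes) made up 0.0387% to 0.0559% of reads in P/D samples and 0.320% to 0.340% in RS samples. Markers of elongating spermatids (10 genes) made up 0.316% to 0.390% and 2.56% to 3.12%, and those of pachytene and diplotene cells (9 genes) 0.568% to 0.616% and 0.390% to 0.424%. Blood and immune markers had 0 reads, and those of spermatogonia, Sertoli cells and Leydig cells at most 0.00258% of reads in any sample. Each of these lists named 6 genes, but they had only 1, 1, 2 and 3 contigs in the data. Such low shares therefore cannot show that these cells were absent. Transcripts of spermatid markers were read in the P/D samples too, and those of pachytene and diplotene markers in the RS samples. Of 18 tested contigs of pachytene and diplotene markers, 9 were lower and 4 higher in RS by the count test given below (edgeR). Over all contigs 30.8% were lower and 32.6% higher. Which cells such reads came from was not tested. The part that spermatid RNA has in any P/D value given here was not tested either.

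Tails of the member transcripts were longer in RS as a whole, as were those of all transcripts. Pooled over members, the median tail was 88.7, 84.9 and 87.6 nt in P/D spermatocytes and 143, 141 and 147 nt in RS. The groups did not overlap, and over all annotated contigs the corresponding medians were 93.9, 92.2 and 91.0 nt and 158, 156 and 160.2 nt. The share of member reads in the ~150-nt class, taken as 120 to 210 nt, was 26.8% ± 0.0865 (SD, n = 3) in P/D spermatocytes and 57.9% ± 1.01 (SD, n = 3) in RS, against 29.6% ± 0.943 (SD, n = 3) and 67.4% ± 0.996 (SD, n = 3) over all annotated contigs. In RS a larger part of the member reads stayed in the ~60-nt class of 30 to 120 nt, namely 33.3% ± 2.25 (SD, n = 3) against 22.4% ± 1.64 (SD, n = 3). Neither comparison of members with all contigs was tested.

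Contig by contig, 104 of the 145 members had enough reads for a test of the tail (10 reads in 2 replicates of either cell type). Of these, limma called 54 longer and 0 shorter in RS at a Benjamini-Hochberg adjusted p under 0.05, beside 54.2% longer and 1.69% shorter among all 6990 contigs tested. The share is near the background. At an unadjusted p below 0.05 there were 62 longer and 0 shorter, and the methods' t-test after Benjamini-Hochberg adjustment gave 47 and 0. The median difference was 33.7 nt over members and 37.4 nt over all contigs tested. Among 103 members with reads in every sample, every RS sample lay above every P/D sample for 68 (63.6% of all such contigs) and below for 2 (2.72%), Cfap52 and Cfap65.

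Accumulation was split within the set. By edgeR's quasi-likelihood test with Benjamini-Hochberg adjustment, 35 of the 92 members tested were higher in RS and 29 were lower, beside 32.6% higher and 30.8% lower among all 6005 contigs tested, so these shares too are near the background. DESeq2 was run without the read filter on all 145 members, of which 142 got an adjusted p, and gave 37 higher and 19 lower. These counts are not out of the 92, and no DESeq2 share over all contigs is given. Filters removed 40 members from both tests, with 4 to 66 reads over the 6 samples, and 11 genes had no contig tested. With the contigs of a gene pooled, 44 of 80 member genes had longer tails (55.0% of all genes) and 1 had a shorter tail (2.1%), while 32 of 79 were higher (34.9%) and 21 were lower (31.3%).

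**Figure D1:**
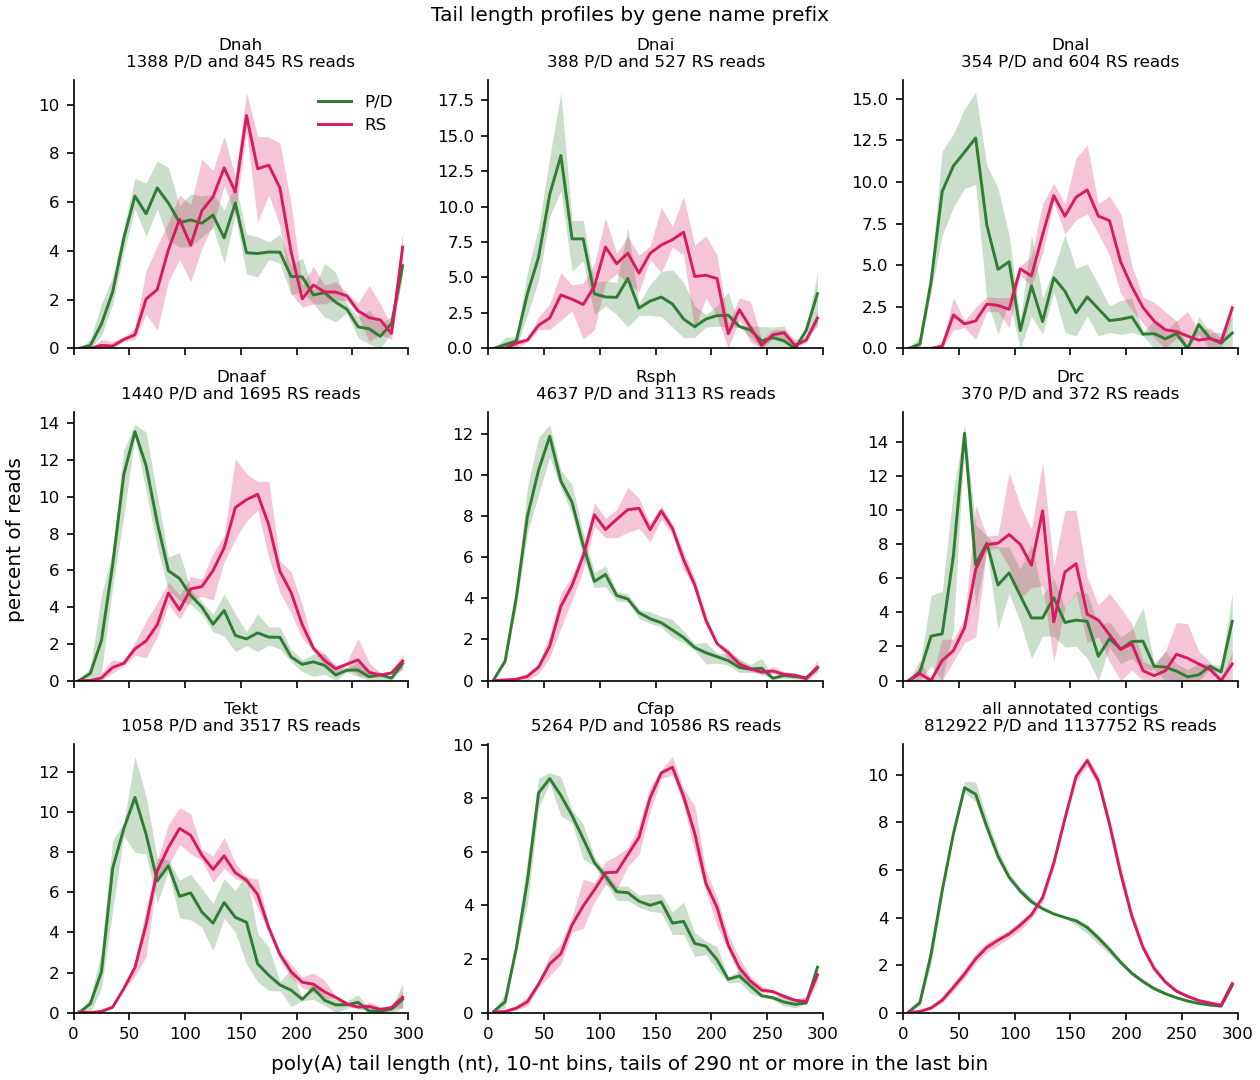
Percent of reads in 10-nt bins of poly(A) tail length for each gene name prefix and for all annotated contigs, with lines for the mean of 3 samples and bands from the lowest to the highest sample (P/D green, RS pink). The RS profiles of Dnal, Dnaaf and Cfap have their main mass near 150 nt, while those of Rsph, Drc and Tekt spread over about 80 to 170 nt.

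A poly(A) tail is added where the transcript is cut, a short way after a signal such as AATAAA or ATTAAA. The 3′ ends below are the annotated ends of the contig with most reads of each prefix, with the hexamer in capitals. For Dnaaf the next contig, Dnaaf11, is shown, since neither hexamer was found in the last 50 bases of Dnaaf1. They were read from the GENCODE vM21 transcripts on GRCm38 (5′ to 3′, up to 30 bases that begin 4 bases before the hexamer). Where the reads themselves end was not determined, so a tail may be joined at another site. The annotated ends are shown because a tail follows such an end.
Dnah8 chr17:30877338-30877365, plus strand: gtaaATTAAAggcaaatatatactctaa
Dnai3 chr3:146040526-146040549, minus strand: aacaATTAAAtcctatcaaatcta
Dnali1 chr4:125055338-125055360, minus strand: atttAATAAAcagctttctcgca
Dnaaf11 chr15:66379858-66379887, minus strand: actgAATAAAgactttcagctggtccttga
Rsph1 chr17:31255024-31255053, minus strand: acaaAATAAAtctccaggtgttcagtgttg
Drc1 chr5:30366671-30366695, plus strand: ttctAATAAAgtcttttaaagctta
Tekt1 chr11:72344722-72344747, minus strand: ccttATTAAActgcatcgtaagacaa
Cfap36 chr11:29221532-29221547, minus strand: taaaAATAAAacaaaa
The Dnah8 contigs that share an end carry ATTAAA as well (chr17:30875241-30875264, plus strand):
Dnah8: ctcaATTAAAcagttgacacttct
In the last 50 bases, 51 of 101 tested members with a sequence had AATAAA as their last such hexamer (50.5%) and 30 had ATTAAA (29.7%), beside 62.1% and 15.4% of 6901 tested contigs. Contigs of 1 gene often share an end, so these are fewer than 101 independent ends. ATTAAA was the last hexamer in 6 of 15 Dnah, 5 of 7 Dnai, 2 of 4 Dnal, 1 of 6 Dnaaf, 3 of 12 Rsph, 0 of 3 Drc, 5 of 12 Tekt and 8 of 42 Cfap contigs.

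The 8 prefixes differed from each other in the direction of accumulation, as the plot of fold changes by prefix shows. By edgeR, most heavy chain contigs and genes were lower in RS and most Tekt contigs and genes were higher. Radial spokes were lower for 6 of 9 contigs but 3 of 6 genes, and Cfap contigs went both ways. No test between prefixes was made.

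**Figure D2:**
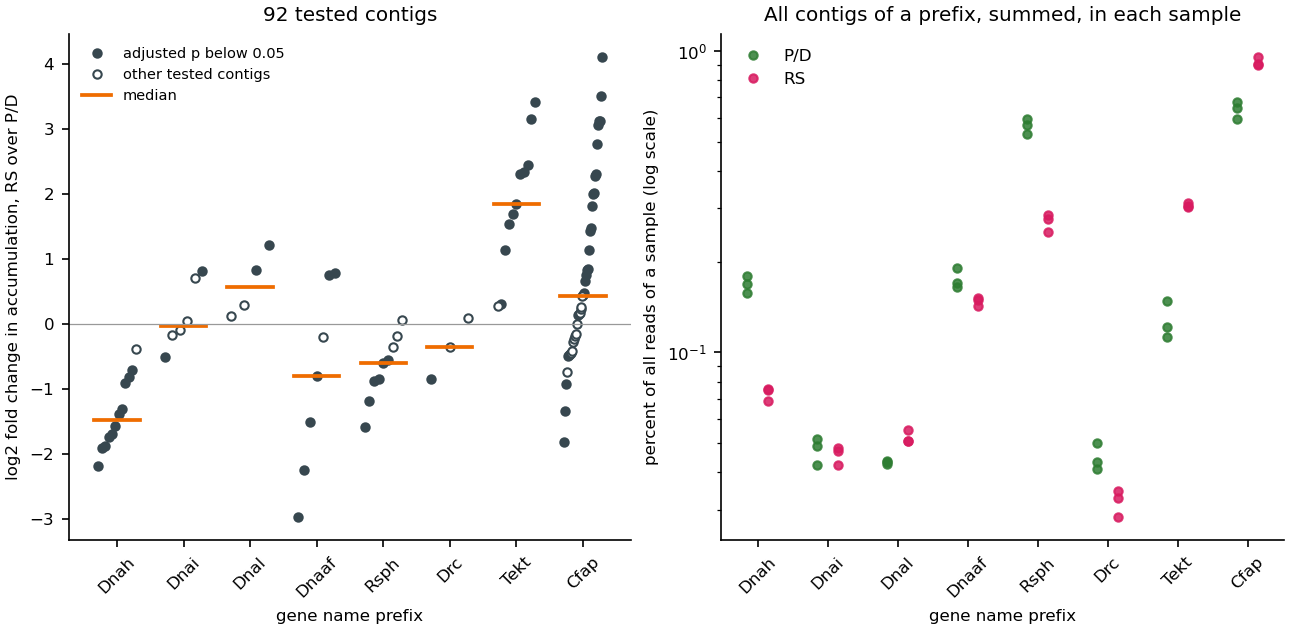
Left, log2 fold change in accumulation (RS over P/D) of the 92 tested contigs by gene name prefix, filled where the edgeR adjusted p is below 0.05, with orange bars for the median. Right, percent of all reads of each sample on the contigs of a prefix (log scale), where the RS samples lie below every P/D sample for Dnah, Dnaaf, Rsph and Drc and above for Dnal, Tekt and Cfap.

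Dynein heavy chains, the motor subunits of the arms, were lower in RS for 11 of 12 contigs and 8 of 11 genes tested by edgeR, and in P/D spermatocytes their tails were longer than the median over all contigs. Dnah contigs took 0.157%, 0.178% and 0.169% of the reads in P/D samples and 0.0692%, 0.0750% and 0.0758% in RS samples. No tested Dnah contig was higher by edgeR, also without adjustment, while over all contigs 32.6% were higher and 30.8% lower. The median log2 fold change of Dnah contigs was -1.47. DESeq2 on all 25 contigs gave 9 lower and 2 higher. By gene, Dnah10 and Dnah6 were not called (log2 fold changes of 0.0028 and -0.24), and 1 gene, Dnah3, was higher, with a CPM of 8.197, 6.54 and 3.69 in P/D samples and 50.5, 56.9 and 75.8 in RS samples (log2 fold change 3.35 ± 0.47 (SE), edgeR adjusted p = 6.73e-08). Dnah3 rested on 5 reads in the P/D samples.

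The pooled median tail of Dnah reads was 135, 115 and 122 nt in P/D samples and 158, 154 and 153 nt in RS samples, while all annotated contigs had 91.0 to 93.9 nt and 156 to 160.2 nt. By these medians the Dnah tails lay above those of all contigs in P/D spermatocytes, and in RS they did not. By pooled means they lay above in RS too, at 164, 158 and 164 nt against 155, 152 and 157 nt. By limma 4 of 15 tested contigs had longer tails, with a median difference of 16.1 nt, beside 54.2% and 37.4 nt over all contigs, and this difference between lists was not tested. The count was 1 without the second P/D sample and 2 without the third P/D sample or without the first RS sample.

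Dnah8, a heavy chain of the outer arm known for its place in the sperm flagellum, had the most reads of the Dnah genes, spread over 7 contigs. Its largest contig (ENSMUST00000236140, 16685 nt, 93 exons) had 213, 327 and 258 CPM in the P/D sorts and 85.3, 65.3 and 87.1 in RS samples, with no overlap (log2 fold change -1.73 ± 0.21 (SE), edgeR adjusted p = 1.49e-09). Its mean tail was 133, 123 and 128 nt in P/D samples and 138, 137 and 135 nt in RS samples, a difference of 9.001 ± 5.56 nt (SE, limma adjusted p = 0.218). The other 3 named Dnah8 contigs share 1 transcript end, so their reads may be split among them. They had log2 fold changes of -1.91, -1.87 and -1.68, and tail differences of 16.1, 11.8 and 7.54 nt, none called by limma.

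Dnah1, a heavy chain of an inner arm, fell from 135, 186 and 155 to 60.003, 90.6 and 112 CPM (log2 fold change -0.81 ± 0.23 (SE), edgeR adjusted p = 0.00217). Its tail was 145, 132 and 125 nt in P/D samples and 177, 156 and 157 nt in RS samples, 28.9 ± 8.85 nt longer (SE, limma adjusted p = 0.0322). The groups did not overlap, but the tail call was lost when any of 4 samples was left out.

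Dnah transcripts are the longest of the set. Of the 12 members of 8000 nt or more that were tested, 10 were lower in RS (83.3%), beside 34 of 116 other annotated contigs of that length (29.3%). For tails, 4 of 15 tested members of that length were longer (26.7%, median difference 16.1 nt). The other annotated contigs of that length had 60 of 149 longer (40.3%, median difference 29.5 nt). Over members, the log2 fold change and the log2 of transcript length had a Pearson r of -0.51 and a Spearman rho of -0.47 (n = 91 contigs), beside -0.11 and -0.06 over all contigs (n = 5935). These are descriptions across contigs that share libraries and often genes, with no test, and the part of read length in them was not tested.

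Intermediate chains, which anchor the arms, showed little change in accumulation. Of 6 Dnai contigs tested, 1 was higher and 1 lower by edgeR, beside 32.6% and 30.8% of all contigs. By limma 3 of 7 had longer tails with a median difference of 31.7 nt, beside 54.2% and 37.4 nt over all contigs. Dnai1, of the outer arm, had 135, 78.4 and 122 CPM in P/D samples and 114, 96.9 and 92.7 in RS samples, which overlap (log2 fold change -0.09 ± 0.24 (SE), edgeR adjusted p = 0.756). Its tail went from 123, 112 and 102 nt to 169.7, 153 and 168 nt, a difference of 51.1 ± 8.48 nt (SE, limma adjusted p = 0.00302). Dnai3 had tails of 117, 96.7 and 102 nt and 106, 104 and 133 nt, which overlap (difference 9.17 nt, limma adjusted p = 0.488). Its log2 fold change of -0.50 (edgeR adjusted p = 0.0462) was not called by DESeq2 or without 4 of the single samples.

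Light chains had the largest tail difference by median of the 8 prefixes, 66.5 nt over 4 tested contigs, 3 of them called longer by limma. Over all contigs the median was 37.4 nt and 54.2% were longer. Dnali1, a light chain of the inner arm, had tails of 105, 95.2 and 100.2 nt in P/D samples and 165, 164 and 177 nt in RS samples, 68.3 ± 6.56 nt longer (SE, limma adjusted p = 0.000537), at a level that did not pass the test (log2 fold change 0.13 ± 0.15 (SE), edgeR adjusted p = 0.46). Dnal4 had tails of 83.9, 79.2 and 85.1 nt in P/D samples and 142, 151 and 149.7 nt in RS samples, 64.7 ± 5.72 nt longer (SE, limma adjusted p = 0.00049). In both contigs all RS samples were above all P/D samples. Dnal1, an outer arm light chain, went the other way when its 2 contigs were pooled, from 143, 116 and 116 nt to 89.1, 91.0 and 107 nt (difference -29.1 ± 9.72 nt (SE), limma adjusted p = 0.043). It was the only member gene called shorter. Its main contig had a difference of -46.6 nt that was not called (limma adjusted p = 0.105), on 4 to 24 reads per sample, while its accumulation rose (log2 fold change 1.22 ± 0.39 (SE), edgeR adjusted p = 0.00598), a call that DESeq2 did not make.

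Among the assembly factors, 4 of 7 tested Dnaaf contigs were lower in RS and 2 higher by edgeR, beside 30.8% and 32.6% of all contigs. Dnaaf2, Dnaaf4, Dnaaf5 and Dnaaf6rt fell, by log2 fold changes of -0.79, -2.24, -1.51 and -2.97, and Dnaaf3 and Dnaaf11 rose, by 0.75 and 0.78. Of these DESeq2 called Dnaaf4, Dnaaf5 and Dnaaf11 only. Dnaaf1, required for the assembly of both kinds of arm, had most of the reads, with 1189, 1422 and 1172 CPM in P/D samples and 1131, 1083 and 994 in RS samples (log2 fold change -0.20 ± 0.10 (SE), edgeR adjusted p = 0.0946). Its tails went from 90.4, 87.0 and 82.5 nt to 153, 149 and 157 nt, which is 66.6 ± 5.73 nt longer (SE, limma adjusted p = 0.00049), and its ~150-nt class went from 17.0% to 74.0% of reads. This is among the 5 largest tail increases of members with 20 reads in every sample. Dnaaf11 had 113, 89.5 and 109 nt and 125, 117 and 117 nt, a difference of 15.9 nt that was not called (limma adjusted p = 0.14). Of 6 Dnaaf contigs tested for tails, 2 were longer (beside 54.2% of all contigs), Dnaaf1 and Dnaaf3.

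Radial spoke transcripts had longer tails in RS for all 6 genes tested, and accumulation was lower for 3 of these genes (Rsph1, Rsph3a and Rsph3b), higher for 1 and not called for 2. Their contigs took 0.530%, 0.565% and 0.595% of reads in P/D samples and 0.285%, 0.278% and 0.251% in RS samples. All 12 Rsph contigs tested had longer tails in RS by limma, with differences of 23.3 to 61.8 nt and a median of 55.7 nt, beside 54.2% of all contigs. These contigs come from 6 genes, Rsph1, Rsph3a, Rsph3b, Rsph6a, Rsph9 and Rsph10b, and Rsph3a and Rsph3b are near-identical copies between which reads may be split. No contig lost its call when a single sample was left out, although 2 of them had too few reads for the test without the second or the third RS sample. Of 9 contigs tested for accumulation, 6 were lower, 2 each of Rsph1, Rsph3a and Rsph3b, and 0 higher by edgeR (the same at an unadjusted p below 0.05). Over all contigs 30.8% were lower and 32.6% higher. DESeq2 on all 14 Rsph contigs gave 5 lower and 0 higher. The higher gene, when its contigs were pooled, was Rsph10b (log2 fold change 1.22 ± 0.35 (SE), edgeR adjusted p = 0.00232).

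Rsph1, a protein of the spoke head, had more reads than any other member. Its main contig (ENSMUST00000024832, 1191 nt) had 2471, 2654 and 2901 CPM in P/D samples and 988, 853 and 775 in RS samples, far apart (log2 fold change -1.58 ± 0.10 (SE), edgeR adjusted p = 4.66e-17). Its tail was 95.9, 96.9 and 102 nt in P/D samples and 124, 119.8 and 121 nt in RS samples, only 23.3 ± 5.40 nt longer (SE, limma adjusted p = 0.0115). Its ~150-nt class made up 23.5% of reads in the spermatocytes and 43.5% in the spermatids. A second contig with the same transcript end had a log2 fold change of -0.55 and a tail difference of 29.6 nt, both called.

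Rsph3a, of the spoke stalk, fell from 1102, 1213 and 1235 to 600.0, 497 and 424 CPM (log2 fold change -1.19 ± 0.12 (SE), edgeR adjusted p = 1.33e-11). Its tail went from 82.8, 78.4 and 78.0 nt to 135, 132 and 138 nt, a difference of 55.0 ± 5.41 nt (SE, limma adjusted p = 0.000556). Rsph9 and Rsph6a, both of the spoke head, had tail differences of 49.9 and 58.1 nt (limma adjusted p = 0.000805 and 0.000589) at log2 fold changes of 0.06 and -0.18 that were not called.

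Contigs with the Drc prefix gave no called tail in the main test. They stand for part of the regulatory complex only, since other link genes are in the list of other axoneme genes below. By limma 0 of the 3 Drc contigs tested were longer, beside 54.2% of all contigs. The count was also 0 at an unadjusted p below 0.05 and by the methods' t-test, and the median difference of the 3 contigs was 19.1 nt. Other settings did call some of them, with 2 longer by the median tail, 2 with each replicate weighted by its reads and 1 with tails of 10 to 300 nt only. Drc1 had tails of 103, 98.1 and 111 nt and then 117, 112 and 150.2 nt (difference 22.5 ± 11.4 nt (SE), limma adjusted p = 0.141). In Drc3 the values were 123, 94.2 and 139 nt in P/D samples and 133, 141 and 139.6 nt in RS samples (limma adjusted p = 0.223), and its accumulation fell (log2 fold change -0.84 ± 0.21 (SE), edgeR adjusted p = 0.000669). Drc7 had 136, 129 and 113 nt and 123, 98.0 and 112 nt, with overlap (difference -15.3 nt, limma adjusted p = 0.222). The RS tails of all 3 contigs averaged 111 to 138 nt.

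Accumulation rose for 6 of the 7 genes tested with the Tekt prefix, which include Tektip1 beside the tektins. Contigs of this prefix took 0.113%, 0.148% and 0.121% of reads in P/D samples and 0.303%, 0.305% and 0.312% in RS samples. Beside 32.6% higher and 30.8% lower over all contigs, 10 of 11 Tekt contigs tested were higher and 0 lower by edgeR (the same without adjustment). Their median log2 fold change was 1.85, and DESeq2 on all 13 gave 10 higher and 0 lower. By gene, 6 of 7 were higher (beside 34.9% of all genes), all but Tekt5. Tails changed less, with 5 of 12 contigs longer by limma and a median difference of 23.3 nt, beside 54.2% and 37.4 nt over all contigs. The count of longer Tekt contigs was 3 without the first RS sample. The pooled median tail of Tekt reads in RS was 119.7, 117 and 127 nt.

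Tekt2 had 143, 226 and 155 CPM in P/D samples and 594, 493 and 581 in RS samples (log2 fold change 1.69 ± 0.16 (SE), edgeR adjusted p = 3.46e-12). Its tail of 101, 100.2 and 115 nt in P/D samples and 122, 118 and 132 nt in RS samples did not overlap but was not called (difference 18.8 ± 7.22 nt (SE), limma adjusted p = 0.0675). Tekt1 differed less in level, with 414, 562 and 494 CPM in P/D samples and 666, 554 and 565 in RS samples, which overlap (log2 fold change 0.31, edgeR adjusted p = 0.036, not called by DESeq2). Its tail was 102, 82.2 and 83.0 nt in P/D samples and 128, 126 and 132 nt in RS samples, 39.6 ± 7.53 nt longer (SE, limma adjusted p = 0.00527). Tektip1, a tektin bundle interacting protein, had 4.10, 13.1 and 11.1 CPM in P/D samples and 123, 92.7 and 101 in RS samples (log2 fold change 3.42 ± 0.40 (SE), edgeR adjusted p = 7.35e-10). The few Tektip1 reads in P/D samples, 1, 4 and 3, already had tails of 156, 143 and 131 nt.

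Cfap contigs were higher more often than lower. Of 40 tested, 20 were higher and 6 lower by edgeR, beside 32.6% higher and 30.8% lower over all contigs. DESeq2 on all 68 gave 24 higher and 2 lower, and edgeR with 10 counts in every sample gave 11 higher and 1 lower of 24. Neither of these alternatives has a share over all contigs beside it. Of 45 tested for tails, 25 were longer and 0 shorter by limma (28 and 0 at an unadjusted p below 0.05). This share of 55.6% is near the 54.2% over all contigs. The median difference was 35.9 nt, beside 37.4 nt over all contigs. The share of reads on Cfap contigs rose from 0.646%, 0.679% and 0.594% to 0.906%, 0.955% and 0.894%. The named Cfap contigs are given in 3 sets, made after their values were seen: those with longer tails, those with the highest fold changes, and those with the smallest tail differences.

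In the first set, Cfap68, a protein of the microtubule lumen, had tails of 112, 118 and 109 nt in P/D samples and 180.1, 179 and 180.3 nt in RS samples (difference 66.8 ± 5.44 nt (SE), limma adjusted p = 0.00049). Its ~150-nt class rose from 34.1% to 84.9% of reads, and its log2 fold change was 0.67 ± 0.15 (SE, edgeR adjusted p = 0.000143). Cfap119 had 108, 113 and 115 nt and 178, 174 and 173 nt (difference 62.9 ± 5.43 nt (SE), limma adjusted p = 0.00049) at a log2 fold change of 0.45 that DESeq2 did not call. Both pairs of groups lay far apart. Cfap206, which is needed for the base of a radial spoke, and Cfap36, the Cfap contig with the most reads, had tail differences of 49.5 and 38.7 nt (limma adjusted p = 0.000778 and 0.00437) and log2 fold changes of 0.48 (called) and 0.15 (not called).

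In the second set, 4 Cfap contigs and Tektip1 had the highest log2 fold changes among called members with 20 reads in every RS sample. Cfap97d1 had 8.197, 6.54 and 7.37 CPM in P/D samples and 123, 129 and 135 in RS samples (log2 fold change 4.12 ± 0.39 (SE), edgeR adjusted p = 3.3e-12). Cfap276, a microtubule inner protein, had 57.4, 71.9 and 14.7 and then 442, 348 and 458 CPM (log2 fold change 3.12 ± 0.24 (SE), edgeR adjusted p = 7.54e-15), and Cfap90 36.9, 65.4 and 25.8 and then 303, 345 and 421 (log2 fold change 3.07 ± 0.24 (SE), edgeR adjusted p = 9.82e-15). None of the 3 had a called tail difference. Cfap276 tails were 180.4, 168 and 190.0 nt in P/D samples and 171, 174 and 174 nt in RS samples. Cfap90 tails were 159.6, 160.5 and 147 nt and then 158, 154 and 161 nt. Those of Cfap97d1 were 187, 163 and 172 nt on 2 reads per P/D sample and 174, 161 and 168 nt in RS samples. Cfap96 rose from 16.4, 6.54 and 3.69 to 79.0, 122 and 87.1 CPM (log2 fold change 3.51 ± 0.43 (SE), edgeR adjusted p = 2.31e-09), with P/D tails that spread from 58.2 to 146 nt. Round spermatid markers in the P/D samples, which stood at 0.0387% to 0.0559% of reads, had a mean tail there of 144 ± 10.3 nt (SD, n = 3), against 177 nt in RS samples. The part of spermatid RNA in the P/D tails of these contigs was not tested.

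In the third set, Cfap298 had 101, 108 and 106 nt in P/D samples and 103, 103 and 105 nt in RS samples (difference -1.48 ± 5.33 nt (SE), limma adjusted p = 0.832), while its level fell (log2 fold change -0.47 ± 0.12 (SE), edgeR adjusted p = 0.00101). Cfap52, a microtubule inner protein, had 111, 103 and 109 nt and then 93.9, 79.4 and 101 nt (difference -16.2 ± 7.41 nt (SE), limma adjusted p = 0.111). Cfap65 had 156, 158 and 178 nt and then 154, 143 and 140.0 nt (difference -18.4 ± 8.31 nt (SE), limma adjusted p = 0.108). Every RS sample lay below every P/D sample in Cfap52 and Cfap65. With a filter of 20 reads in every sample, which tests fewer contigs, both passed as shorter (limma adjusted p = 0.0268 and 0.0285).

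**Figure D3:**
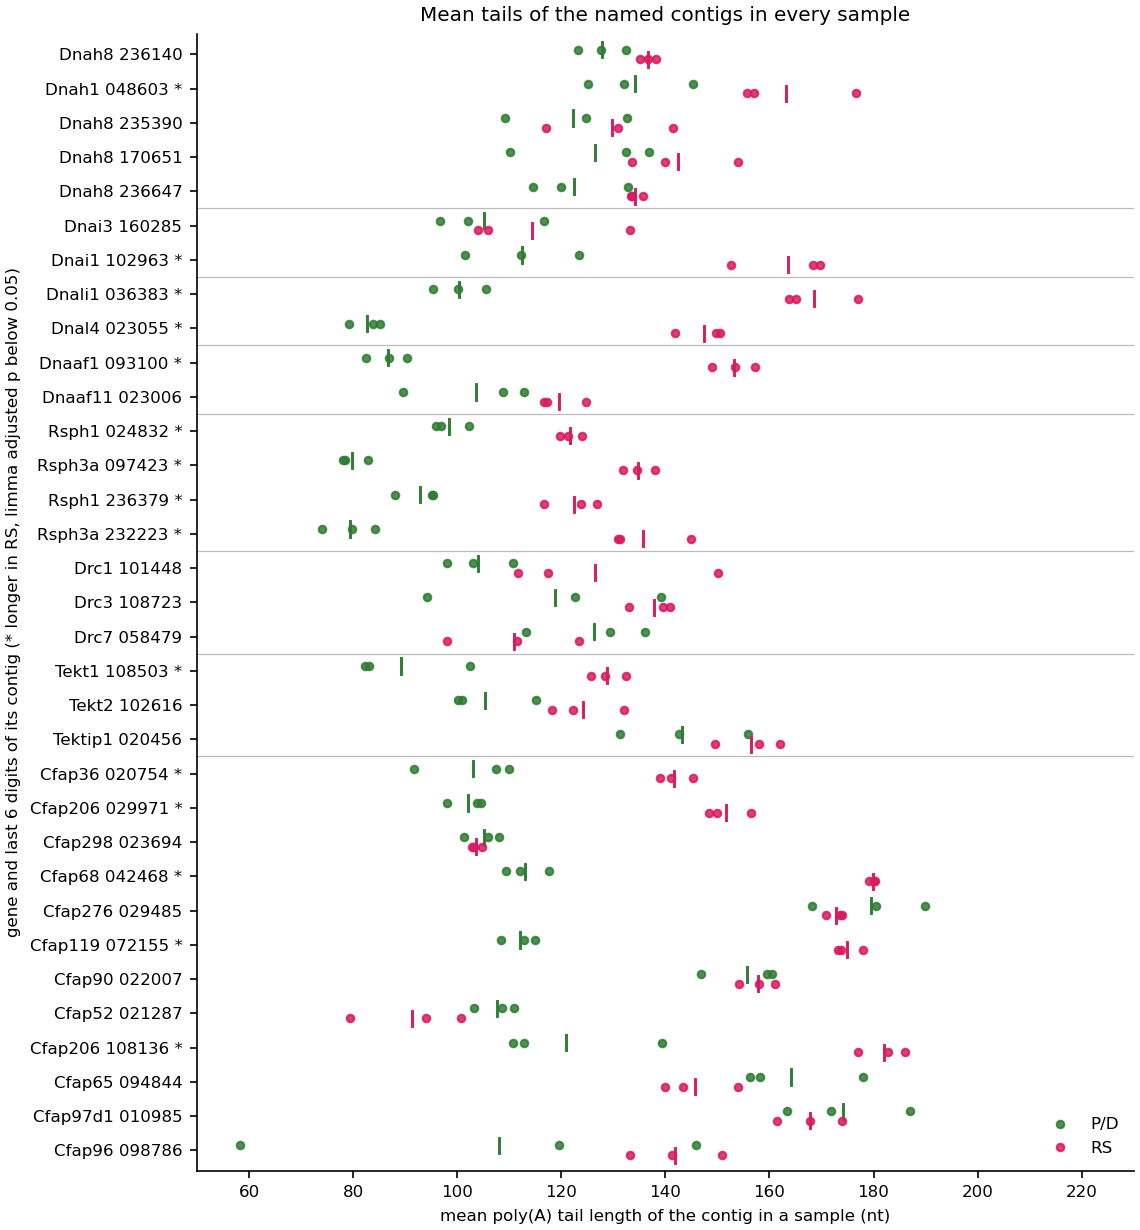
Mean poly(A) tail length (nt) of each named contig in each of the 3 P/D (green) and 3 RS (pink) samples, with vertical ticks for the group means and a star where limma called the tail longer in RS. Cfap68, Cfap119, Dnali1 and Dnaaf1 are widely separated, the 4 Dnah8 contigs lie close together, and Cfap276, Cfap90 and Cfap97d1 are at about 150 nt or more in both groups.

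Set side by side, the change in accumulation and the change in tail were only loosely related within the set. Over the 91 members tested for both, the tail difference and the log2 fold change had a Pearson r of -0.16 and a Spearman rho of -0.08, beside -0.29 and -0.26 over all annotated contigs (n = 5916), as a description across contigs of the same 6 samples with no test. With 20 reads in every sample the values were -0.05 and 0.0012 over 42 members and 0.02 and -0.07 over 1827 contigs. Of 35 members with higher accumulation 16 had longer tails (45.7%, beside 36.5% of all such contigs), of 28 not called 19 (67.9% beside 71.1%), and of 28 with lower accumulation 14 (beside 63.5%). Of the 15 members with a log2 fold change of 2 or more, 2 had longer tails (13.3%), as did 137 of all 1036 such contigs (13.2%).

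**Figure D4:**
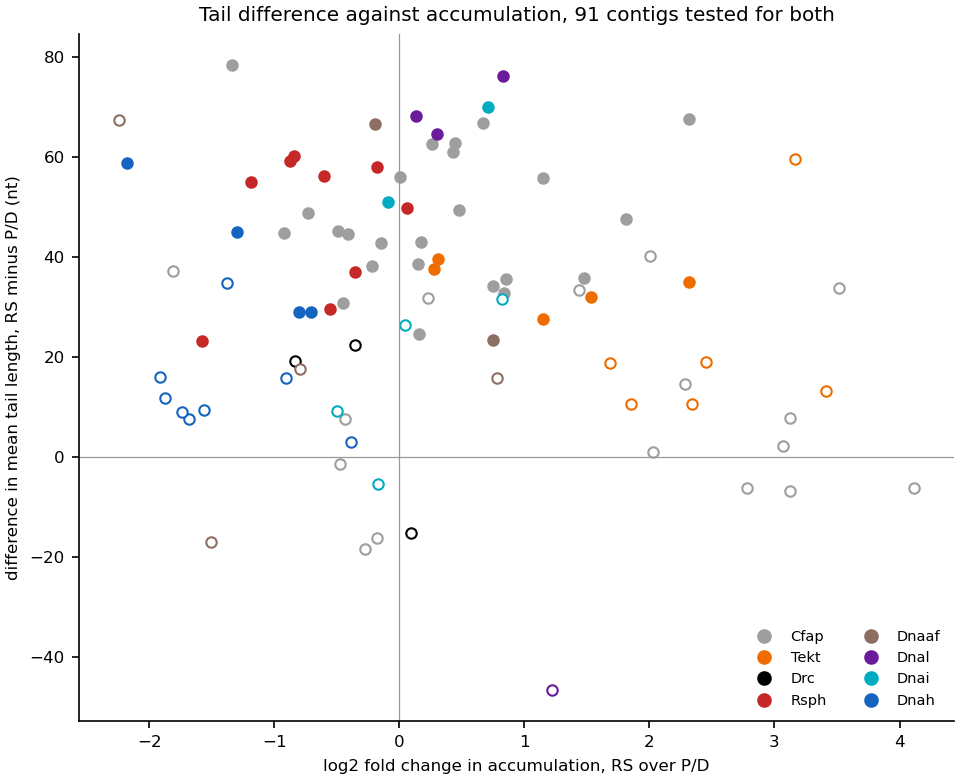
Difference in mean tail length (nt, RS minus P/D) against log2 fold change in accumulation (RS over P/D) for the 91 contigs tested for both, coloured by prefix and filled where limma called the tail longer. Rsph contigs (red) are all filled and left of 0 but for 1, Dnah contigs (blue) are left of 0 and mostly open, and Tekt contigs (orange) are right of 0.

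Other genes of the axoneme, from a list of 50 symbols without these prefixes (central pair, docking, link and assembly proteins), gave 88 contigs. These contigs came from 48 genes, and 2 on the list were members of the set. By limma 44 of 66 tested had longer tails (66.7%) and 1 had a shorter tail (Ccdc63), beside 54.2% and 1.69% of all contigs. The median difference was 44.1 nt, beside 37.4 nt over all contigs. By edgeR 22 of 59 were higher (37.3%) and 10 lower (16.9%), beside 32.6% and 30.8% of all contigs. The median log2 fold change of the list was 0.17. These differences between the list and all contigs were not tested. Meig1, needed for building the sperm tail, had tails of 99.7, 105 and 100.3 nt in P/D samples and 169, 166 and 168 nt in RS samples (difference 66.1 ± 5.27 nt (SE), limma adjusted p = 0.00049), and Ropn1l, a radial spoke protein, had 114, 108 and 110.0 nt and then 165, 163 and 166 nt (limma adjusted p = 0.000552). Neither contig changed in accumulation past the threshold of edgeR.

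Ciliary genes are known to be regulated through the X-box, to which RFX factors bind. In the RefSeq promoters (250 bases before to 50 after the gene start, GRCm38) of the 72 member genes matched, the letters GTTGCC stood on either strand in 27 (37.5%), beside 14.1% of 27025 genes, and the longer palindromic X-box consensus, which can overlap these letters, in 2 (2.78%), beside 0.529%. A match is a description and not a site. The 27025 genes were all those with a promoter, whether or not they had reads in these data. The difference from the member genes was not tested. The 2 genes with the consensus moved in opposite directions, Cfap96 up and Cfap298 down, and their windows are shown with the match in capitals.
Cfap96 chr8:45975256-45975285, minus strand: gttctcccGTTCCCACGGCAACgcggccta
Cfap298 chr16:90935016-90935045, minus strand: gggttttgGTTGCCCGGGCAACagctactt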

How the data were processed

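The deposited files were a table of poly(A) tail lengths (in nt) for each read, made by the authors with Nanopolish after basecalling with Guppy, demultiplexing with Deeplexicon and alignment with minimap2 (version 2.20-r1061 and build mm10 per the submitters' processing notes) to GENCODE transcripts, and a table of raw counts per contig deposited by the authors. Counts equalled the reads in the tail table in every cell. Reads mapped to several isoforms can be split among them (34 member reads were listed on several contigs), and counts were not corrected for transcript length, so that levels were compared between samples only.

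Mean tails per contig and sample were fitted with limma 3.58.1 (contigs with at least 10 reads in 2 replicates of either cell type and a mean in 2 of each), and counts with edgeR 4.0.16 (TMM, filterByExpr, quasi-likelihood), both two-sided over all annotated contigs with Benjamini-Hochberg adjustment, threshold 0.05. Fold changes depend on the 244004 to 474688 reads per sample, and CPM values are per total reads. Both fits were tested on simulated data. DESeq2 1.42.0 and the methods' t-test were alternatives, with other filters, scales, weights, tail limits and classes, and each replicate left out in turn. Replicates are pools of 3 mice, and p-values measure the spread between pools. With 3 samples a group, an exact permutation test cannot go below 0.1, and none was run.

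Named contigs were the 2 with most reads per prefix, the 5 largest and 5 smallest tail differences with 20 reads in every sample, the 5 highest and 5 lowest called fold changes with 20 reads in every sample of the higher cell type, contigs called shorter, other contigs of a named gene with 20 reads in every sample, and the 4 other axoneme contigs with most reads, of which some are not reported here. Members named outside this rule were chosen after their values were seen. The members and lists were chosen with earlier results of these data known. By the reporting summary, each mouse gave all of the germ cell types, but it does not say that the numbers of the samples match between groups. Over 773 contigs with 50 reads in every sample, deviations from the group means of same-numbered samples correlated at 0.02, 0.14 and 0.01 for tails and -0.03, 0.33 and 0.18 for counts. The fit with the replicate number as a block is given with the alternatives. 139 of 145 members were found in GENCODE vM21, and 37 carry an older symbol there. Analyses used R 4.3.3 and Python 3.11.15.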

Additional observations from a re-analysis of the deposited data

How the results depend on the processing

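Counts of member contigs with longer tails in RS (54) lay between 39 and 65 under other summaries, scales, filters, thresholds and weights, except 33 of 42 tested with 20 reads in every sample, and from 44 to 54 with each replicate left out. The count of shorter tails (0) was 2 with 20 reads in every sample, 3 with reads as weights and 1 with the contigs of a gene pooled, and from 0 to 1 with each replicate left out, the 1 without the second P/D sample. Higher accumulation (35) was 19 and lower accumulation (29) was 14 with 10 counts in every sample, a filter that leaves 60 members and moves the median contig by 0.20 on the log2 scale. DESeq2 on all 145 members gave 37 higher, of which 28 were shared with the 35, and 19 lower, of which 19 were shared with the 29. With no filter, 48 were higher and 35 lower. With each replicate left out the counts were 34 to 36 higher and 24 to 30 lower. Pairing samples by number as a replicate block gave 57 longer, 0 shorter, 35 higher and 30 lower, and changed no count by more than 1.5 times. The RS minus P/D gain in the ~150-nt class (31.1 percentage points) was 24.1 for 120 to 180 nt, 33.9 for 100 to 210 nt, 27.2 without the 5 contigs with most reads and 22.7 with contigs weighted equally (30.5 to 31.5 with each replicate left out). The median tail difference (33.7 nt) was 39.955 by median tails and 38.5 with 20 reads in every sample (32.1 to 36.2). The gain in the share of all reads on members (0.0388 percentage points) was 0.276 without the 5 contigs with most reads (0.0101 to 0.0826 with each replicate left out). Values that changed sign were all of contigs not called in that measure. With each replicate left out, tail differences ran from -0.236 to 14.95 nt for Dnai3, -2.30 to 4.51 nt for Cfap90 (-0.0429 nt with reads as weights) and -11.6 to 0.152 nt for Cfap97d1, and log2 fold changes from -0.31 to 0.0167 for Dnai1 (0.0052 without RS replicate 3, 0.11 with 10 counts in every sample) and -0.11 to 0.35 for Drc7 (-0.0083 without RS replicate 2). With 10 counts in every sample the log2 fold change was 0.0213 for Cfap52 and 0.0803 for Meig1. The cause was not tested. Contigs with few reads in 1 cell type, such as Cfap97d1, limit what a tail difference can show.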
